A study of Mus musculus with 2 samples.

Results

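Fibrinogen is encoded by 3 genes, Fga, Fgb and Fgg, which give its α, β and γ chains. These 3 of the 32285 listed genes were followed in the cells of 2 postischemic mouse kidneys, by cell class and by barcode. They were picked by symbol because they led a cluster of proximal tubule (PT) cells in these same libraries, so their levels by class are a description and carry no test. Kidneys of 9-week-old male C57BL/6 mice were taken 24 h after bilateral ischemia and reperfusion. One mouse had JPI-289, an inhibitor of poly(ADP-ribose) polymerase, at 100 mg/kg into the peritoneal cavity just before reperfusion, and the control mouse had saline at that time. Both kidneys were therefore postischemic, and no sham or normal kidney was analysed here. With 1 library per condition, every value compares these 2 mice, intervals cover counting error only, and no test between conditions was possible.

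Fibrinogen is assembled in the endoplasmic reticulum as a dimer of α, β and γ trimers joined by disulfide bonds, and thrombin turns it into fibrin. The liver makes the plasma pool, and interleukin 6 (IL-6) raises transcription of all 3 genes in hepatocytes through STAT3 and C/EBP factors. Injured kidney tubules are also known to express the chains, and fibrinogen has been studied there as a marker and mediator of acute kidney injury.

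The 3 genes lie side by side on chromosome 3 of GRCm38 (mm10), within 42.1 kb. Fgg (ENSMUSG00000033860) spans 83007724 to 83015049 and Fga (ENSMUSG00000028001) 83026076 to 83033627, both on the plus strand. Fgb (ENSMUSG00000033831) spans 83040141 to 83049863 on the minus strand. A gap of 11.03 kb separates Fgg from Fga and one of 6.51 kb separates Fga from Fgb.

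The bases before the transcription start of each gene are shown because the 3 genes share an origin and a regulator in hepatocytes. They come from RefSeq on GRCm38.p6, 5′ to 3′ on the strand of the gene, and capitals mark motif matches found on either strand. The windows are chr3:83025903-83026075 for Fga, chr3:83049864-83050113 for Fgb and chr3:83007474-83007723 for Fgg. The Fga window stops 77 bases short of the RefSeq start, where the GENCODE annotation already places the first exon.
Fga: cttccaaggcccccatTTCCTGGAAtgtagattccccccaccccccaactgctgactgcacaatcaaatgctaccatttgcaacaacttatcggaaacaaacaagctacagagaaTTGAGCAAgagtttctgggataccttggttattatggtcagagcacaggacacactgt
Fgb: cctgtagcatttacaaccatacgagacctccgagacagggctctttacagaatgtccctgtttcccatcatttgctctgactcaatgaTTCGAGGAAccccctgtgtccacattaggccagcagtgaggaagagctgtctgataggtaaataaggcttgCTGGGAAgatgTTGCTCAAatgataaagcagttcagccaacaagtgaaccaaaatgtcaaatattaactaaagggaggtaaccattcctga
Fgg: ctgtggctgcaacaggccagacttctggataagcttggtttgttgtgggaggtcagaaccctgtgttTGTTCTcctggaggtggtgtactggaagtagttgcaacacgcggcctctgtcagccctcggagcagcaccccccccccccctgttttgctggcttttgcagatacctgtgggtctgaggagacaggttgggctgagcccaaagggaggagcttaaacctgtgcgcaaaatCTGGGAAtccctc
The motifs searched in the 250 bases before each RefSeq start were CTGGGAA (IL-6 response element), TTCNNNGAA (STAT palindrome), TTGCNNAA (C/EBP), TGTTCT (glucocorticoid receptor hexamer) and TATAAA. No matches to different motifs overlapped in these windows. The IL-6 response element was in the Fgb window, 91 to 85 bases before the start, and in the Fgg window, 13 to 7 bases before it. The STAT palindrome was in the Fga window (234 to 226) and the Fgb window (162 to 154). C/EBP letters were at 135 to 128 in Fga and 80 to 73 in Fgb. Fgg alone held the glucocorticoid hexamer, at 183 to 178, and none of the windows held TATAAA. Among 32851 promoters of the same length, 9.10% held the IL-6 response element, 7.02% the STAT palindrome, 9.56% the C/EBP letters, 16.1% the glucocorticoid hexamer and 12.4% TATAAA. A match is a stretch of letters and not a tested site.

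The deposited matrices held 38328760 unique molecular identifiers (UMIs) for the control and 35548396 for the JPI-289 library. Cell calling and a limit of 50% mitochondrial UMIs left 3753 control cells with a median of 2053 UMIs and 5041 JPI-289 cells with a median of 1866. Of these, 23 barcodes occurred in both libraries. Clusters were made without the 3 fibrinogen genes and named from marker lists, and a class carries the ending "-like" for that reason. All 14 PT markers, among them the endocytic receptor Lrp2 and the phosphate transporter Slc34a1, had UMIs in the PT-like cells of both libraries. Between 94.7% and 100% of the cells of each PT-like cluster came from 1 library, so PT-like cells were compared as a whole class.

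Among called cells, PT-like cells held most of the fibrinogen RNA of both kidneys. Over all barcodes the libraries had 15282 and 70854 fibrinogen UMIs, of which 5738 and 24894 were in the kept cells. The 1798 control PT-like cells had 5325 fibrinogen UMIs, which was 92.8% of those in all control cells, with 48.6% of all UMIs. The 1643 JPI-289 PT-like cells had 20902, which was 83.96%, with 40.8% of all UMIs. Summed over the chains, control PT-like cells were at 656 UMIs per 1000000 UMIs (CPM), with an exact 95% Poisson interval of 638 to 673. JPI-289 PT-like cells were at 2866 CPM (2827 to 2905). The log2 ratio, here always JPI-289 over control, was 2.13 (exact binomial interval 2.08 to 2.17).

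Each of the chains was at a higher level with JPI-289. Fga, which holds the sites where factor XIII cross-links the α chains of fibrin, was at 293 CPM from 2376 UMIs in the control and 983 CPM from 7171 UMIs with JPI-289, a log2 ratio of 1.75 (1.68 to 1.82). Fgb, the β chain, was at 99.2 CPM from 806 UMIs and 728 CPM from 5309 UMIs, a log2 ratio of 2.87 (2.77 to 2.98). Fgg, the γ chain, which carries the binding site for the platelet integrin, was at 264 CPM from 2143 UMIs and 1155 CPM from 8422 UMIs, a log2 ratio of 2.13 (2.06 to 2.20). The interval of Fgb did not overlap those of the other chains. All 3 chains were thus past 2-fold in a comparison where 9.16% of 11298 measured genes were at least 2-fold higher with JPI-289. Since the genes were picked from these cells, nothing is read from that count. Over all measured genes the median was -0.19 on this scale, and relative to it the summed ratio was 2.32. Leaving out the PT-like cluster with the highest JPI-289 level, described further on, brought the summed log2 ratio to 1.36.

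By level within PT-like cells, Fgg ranked 126, Fga 148 and Fgb 202 of the 11298 genes in the JPI-289 library. In the control library the ranks were 527 for Fgg, 467 for Fga and 1428 for Fgb.

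The other classes held less fibrinogen, and the JPI-289 library was higher in every named class. Thin limb-like cells came next among tubule classes, at 132 CPM (106 to 162) in the control and 629 CPM (560 to 703) with JPI-289. TAL-like cells, of the thick ascending limb, were at 88.3 CPM and 360 CPM, and DCT and CNT-like cells, of the distal convoluted and connecting tubule, at 40.6 CPM and 146 CPM. Collecting duct (CD) principal-like cells were at 9.32 CPM from 9 UMIs and 174 CPM, and CD intercalated-like cells at 69.5 CPM from 14 UMIs and 160 CPM from 29. In the control order, the intervals of neighbouring levels overlapped from thin limb-like through TAL-like and CD intercalated-like to DCT and CNT-like cells. Among the JPI-289 tubule classes, those of CD principal-like, CD intercalated-like and DCT and CNT-like cells overlapped.

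Cells that should not transcribe fibrinogen gave the background. Neutrophil-like cells were at 73.6 CPM (50.3 to 104) in the control and 328 CPM (301 to 358) with JPI-289, and red blood cell-like cells at 77.6 CPM and 393 CPM. The log2 ratio between the libraries was 2.14 (1.64 to 2.72) in neutrophil-like cells, and that of PT-like cells lies inside this interval. TAL-like cells had a log2 ratio of 2.02 and endothelial cell (EC)-like cells one of 2.56. Each chain was past 2-fold in TAL-like, EC-like and neutrophil-like cells too, where 8.26%, 5.26% and 11.6% of measured genes were. The same held in thin limb-like cells (9.88%) and CD principal-like cells (8.73%).

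Fibrinogen was also abundant outside called cells. Barcodes of 100 to under 500 UMIs, mostly droplets without a cell, held 8101 fibrinogen UMIs in the control library, or 53.0% of all its fibrinogen UMIs with 44.4% of its UMIs. In the JPI-289 library they held 40987, or 57.8%, with 41.4% of its UMIs. Their level was 476 CPM (466 to 486) and 2784 CPM (2757 to 2811), below the PT-like level of the same library in both cases. The intervals do not overlap but leave out the spread between barcodes. Without the 1% of PT-like barcodes with most fibrinogen, the PT-like level was 535 CPM in the control and 2490 CPM with JPI-289. The JPI-289 level was then below 2784 CPM. Without cluster 9, described further on, the JPI-289 PT-like level was 1679 CPM and so below 2784 CPM. Control PT-like cluster 1 was at 184 CPM, below 476 CPM. The free RNA of PT-like cells was put at 7.29% of their UMIs in the control and 3.51% with JPI-289, from markers of 4 other classes, and subtracting it gave a log2 ratio of 2.09. In JPI-289 neutrophil-like cells such markers were at 0.0537 of their level in barcodes under 100 UMIs, and PT markers at 0.165. In JPI-289 EC-like cells the order was the other way, 0.285 and 0.169, so these shares are uncertain.

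**Figure D1:**
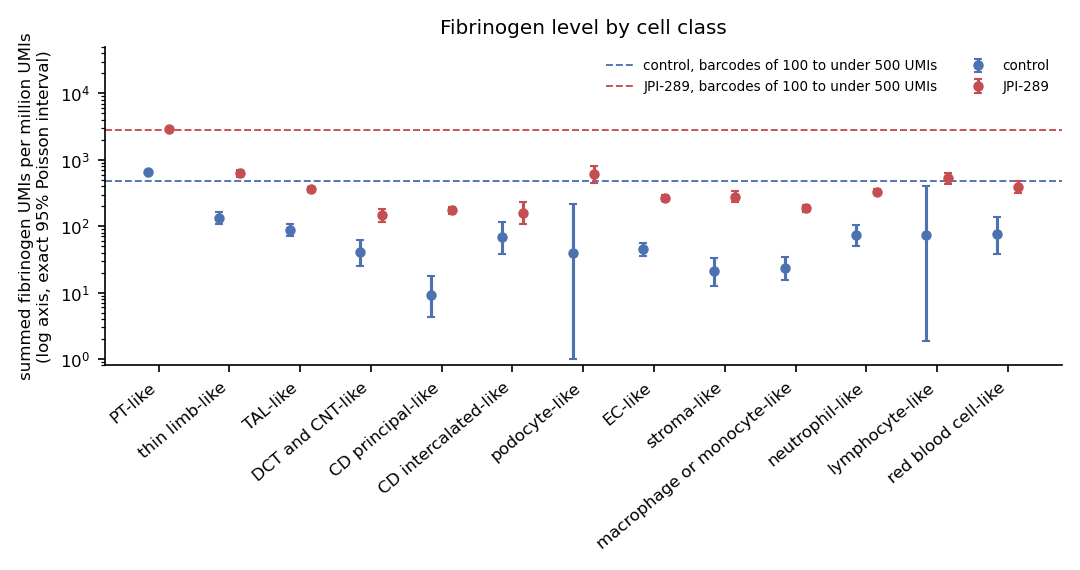
Summed fibrinogen level in CPM (log axis) in each named cell class of the control and JPI-289 libraries, with exact 95% Poisson intervals. Dashed lines give the level in barcodes of 100 to under 500 UMIs, 476 CPM in the control and 2784 CPM with JPI-289, and only PT-like cells lie above the line of their own library. Without the 1% of PT-like barcodes with most fibrinogen, JPI-289 PT-like cells were at 2490 CPM, below their line.

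The classes other than PT-like could be set against free RNA directly, because they also carry PT markers in small amounts. Relative to barcodes under 100 UMIs, JPI-289 neutrophil-like cells held 0.147 of the fibrinogen level (0.135 to 0.160) and 0.165 of the summed level of the 14 PT markers. For CD principal-like cells these were 0.0780 and 0.0732, and for TAL-like cells 0.162 and 0.180. Fibrinogen thus kept about the same ratio to PT markers as in free RNA in these JPI-289 classes. Other JPI-289 classes departed more from it, in both directions. EC-like cells were at 0.119 (0.108 to 0.131) against 0.169 and red blood cell-like cells at 0.176 (0.142 to 0.217) against 0.227. Lymphocyte-like cells were at 0.237 (0.197 to 0.283) against 0.192. Thin limb-like cells stood apart, with 0.362 (0.291 to 0.444) for fibrinogen against 0.109 for PT markers in the control and 0.282 (0.251 to 0.315) against 0.103 with JPI-289. A single JPI-289 thin limb-like barcode held 105 of the 307 UMIs of its class, and the level without it was 424 CPM. Control TAL-like cells were at 0.242 (0.192 to 0.301) against 0.130, and control CD intercalated-like cells at 0.190 (0.104 to 0.319) against 0.0846. PT-like cells were at 1.80 for fibrinogen and 1.46 for PT markers in the control, and at 1.29 and 2.04 with JPI-289.

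Detection per barcode was compared after each barcode had been thinned to 1000 UMIs, a depth that 457 PT-like barcodes of the control and 509 of the other library did not reach. Of 1341 thinned control barcodes 32.4% (29.9 to 34.9) had a fibrinogen UMI, and of 1134 thinned JPI-289 barcodes 61.3% (58.4 to 64.1). Before thinning, at median depths of 2235.5 and 1840 UMIs, the shares were 47.4% and 76.9%. Thinned neutrophil-like barcodes gave 6.21% and 25.3% and red blood cell-like barcodes 7.14% and 25.8%, with median depths of 1973 and 2035.5 and of 1519.5 and 1531 UMIs.

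The other tubule classes were near that background. Their pooled share was 6.38% (4.35 to 8.99) of 470 barcodes in the control and 26.4% (23.5 to 29.4) of 899 with JPI-289. TAL-like barcodes gave 7.81% and 25.7%, DCT and CNT-like 3.70% and 24.1%. Of 70 control CD principal-like barcodes 0 had a UMI, which allows a share of up to 4.29% by the limit of 3 counts (exact 95% upper bound 5.13%), and 27.6% of the JPI-289 ones had. Thin limb-like barcodes gave 15.7% (8.11 to 26.4) of 70 and 32.7% (20.3 to 47.1) of 52, with intervals that overlap those of neutrophil-like barcodes.

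**Figure D2:**
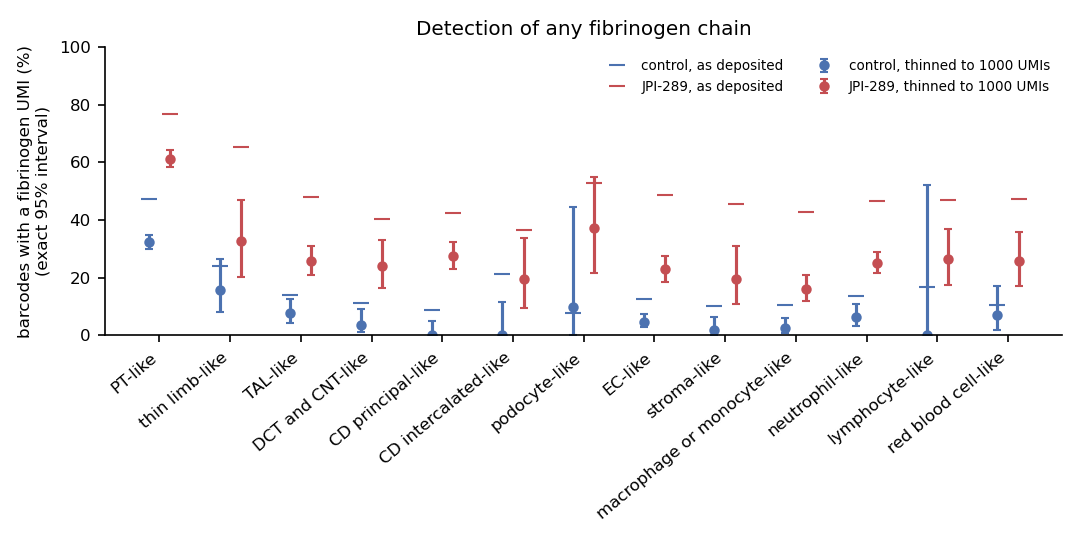
Share of barcodes with a UMI of any fibrinogen chain in each class and library, after thinning to 1000 UMIs (points, exact 95% intervals) and as deposited (dashes). Thinned PT-like barcodes, at 32.4% and 61.3%, stand above neutrophil-like barcodes, at 6.21% and 25.3%.

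The chains were often found together in PT-like barcodes. In thinned barcodes of the control library Fga was detected in 18.8%, Fgb in 8.95% and Fgg in 18.6%. In the JPI-289 library the shares were 41.8%, 32.7% and 42.9%. All 3 chains were seen in 2.83% of the thinned control barcodes and in 19.5% of the JPI-289 ones. Of the fibrinogen-positive PT-like barcodes, 34.3% (29.9 to 39.0) of the control and 59.9% (56.1 to 63.5) of the JPI-289 ones had at least 2 chains. Such a share rises with the shares of the single chains, so its difference between the libraries is not a result apart from the level. Positive neutrophil-like barcodes of the JPI-289 library had at least 2 chains in 15.6% (10.2 to 22.5). In the control library 0 of 11 did.

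Pairs of chains were seen more often than the product of their single shares. Fga and Fgg occurred together in 7.98% of control PT-like barcodes, 2.29 times the product, and in 28.0% of JPI-289 ones, 1.56 times. For Fga with Fgb the ratio was 2.62 and 1.72, and for Fgb with Fgg 2.65 and 1.73. Within single clusters it ran from 1.26 for Fga with Fgb in cluster 4 to 2.95 for Fga with Fgb in cluster 17. Barcodes of 1 library share depth, free RNA and cell state, so these ratios are descriptions. Neutrophil-like barcodes of the JPI-289 library had ratios of 1.48 to 1.81 from 7 to 11 barcodes a pair.

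A minority of PT-like barcodes carried most of the RNA. The control barcodes had a median of 0 fibrinogen UMIs, a 90th percentile of 7 and a highest value of 163. The JPI-289 barcodes had a median of 2, a 90th percentile of 31 and a highest value of 354. At least 10 UMIs were present in 147 control and 401 JPI-289 barcodes. The 180 control barcodes with most UMIs held 70.6% of the class total and the 164 JPI-289 ones 68.1%. These 2 shares were thus alike. The counts were not thinned, and the part of depth in the shares was not tested. The richest control barcode had 71 Fga, 20 Fgb and 72 Fgg UMIs and the richest JPI-289 barcode 75, 82 and 197.

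The mix of chains differed between the libraries. In control PT-like cells Fga made up 44.6% (43.3 to 46.0), Fgb 15.1% (14.2 to 16.1) and Fgg 40.2% (38.9 to 41.6) of the fibrinogen UMIs. In JPI-289 PT-like cells the shares were 34.3% (33.7 to 35.0), 25.4% (24.8 to 26.0) and 40.3% (39.6 to 41.0). Fgb was therefore 10.3 points higher (9.11 to 11.4) and Fga lower by about as much, with Fgg level. The Fgb difference was 5.28 points with a minimum of 1000 UMIs per cell, and the 298 JPI-289 cells of cluster 10 had 41.5% Fga and 17.0% Fgb. Barcodes of 100 to under 500 UMIs gave 15.8% Fgb for the control and 29.3% for JPI-289. The named classes other than PT-like, pooled, gave 19.4% (15.7 to 23.7) and 28.0% (26.3 to 29.7). In each library the chains outside PT-like cells were thus in a mix nearer to that of its own PT-like cells than to that of the other library.

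**Figure D3:**
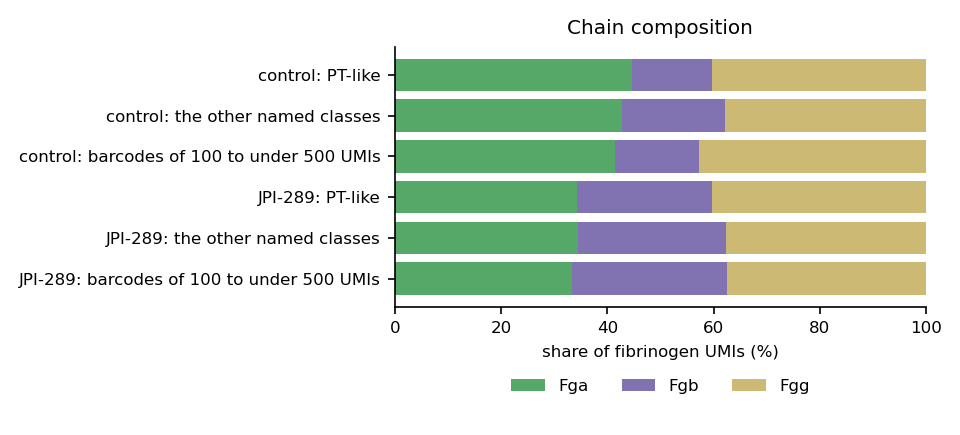
Share of Fga, Fgb and Fgg in the fibrinogen UMIs of PT-like cells, of the other named classes together and of barcodes of 100 to under 500 UMIs, in each library. The Fgb part is 15.1% to 19.4% in the control bars and 25.4% to 29.3% in the JPI-289 bars.

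PT-like clusters differed widely. The highest level was in cluster 9, with 323 JPI-289 cells, at 4718 CPM. Its 10 leading genes held Slc5a2 (the glucose transporter of the early PT), Spink1, Ttr and Spp2, and also the injury genes Havcr1 and Plin2. None of the 14 PT markers was among these genes, and the naming condition on leading genes was met through Havcr1 and Plin2. Its injured PT markers summed to 27592 CPM, the highest of the PT-like clusters plotted, against 17937 CPM in cluster 0. By the marker score the order was different, with an injured PT score of 0.66 in cluster 9, 1.02 in cluster 0 and 0.84 in cluster 10. Its barcodes had a median of 19 fibrinogen UMIs, 76.5% of the thinned ones had a UMI and 36.2% had all 3 chains. It was also the deepest JPI-289 PT-like cluster, with a median of 7324 UMIs, and had a median of 13.2% mitochondrial UMIs. Its PT score was 1.46, above that of cluster 0 (1.27) and below the rest, although all 14 PT markers had at least 3 UMIs in it. Cluster 0, with 1003 shallow JPI-289 cells and the injury-linked genes Plin2, Krt20 and Srxn1 among its leading genes, was at 1944 CPM. Cluster 10, with 298 JPI-289 cells led by the PT genes Kap, Miox and Cyp2e1, was at 1424 CPM and had the lowest Fgb share of the 3, 17.0%.

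The control clusters were lower than JPI-289 clusters 9, 0 and 10, except that cluster 14 was above cluster 10 (1424 CPM). Cluster 14, with 230 cells led by the lactate transporter Slc5a12 and the sulfate transporter Slc13a1 together with nuclear RNAs, was at 1672 CPM, with 51.9% Fga. Nuclear RNAs such as Neat1 and Malat1 made up 213369 CPM in it, against 25340 CPM over all control PT-like cells. Cluster 17 (179 cells, led by Slc22a6) was at 728 CPM and cluster 4 (492 cells, led by Pck1) at 675 CPM. Cluster 1, with 877 shallower cells also led by Pck1, was at 184 CPM. Leaving out cluster 14 gave a summed log2 ratio of 2.38, and the part of nuclear RNA in the level was not tested.

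**Figure D4:**
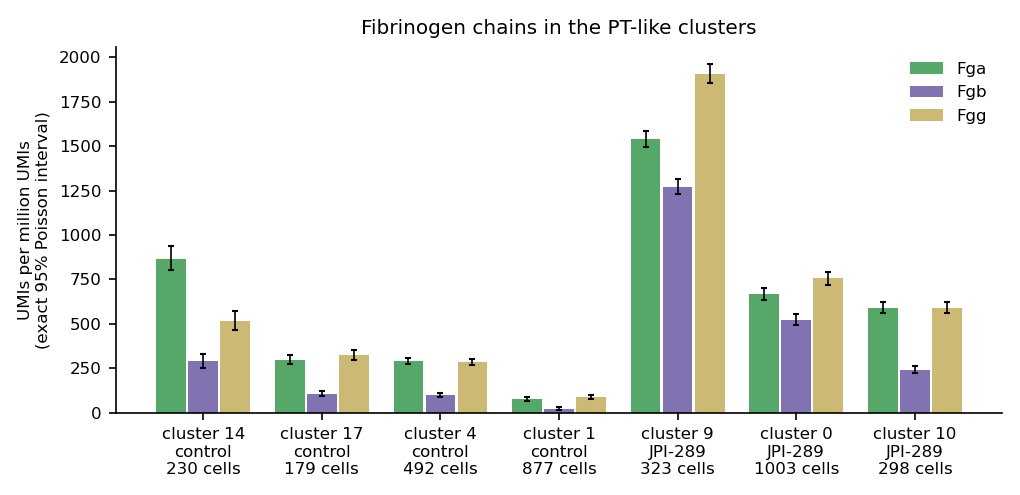
CPM of each chain in the PT-like clusters with at least 50 cells of a library, with exact 95% Poisson intervals. JPI-289 cluster 9 is highest for every chain, and control cluster 14 stands above the other control clusters.

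Liver cells were looked for because the liver is the main source of fibrinogen. Albumin (Alb) had 34 control and 39 JPI-289 UMIs in PT-like cells, at 4.19 and 5.35 CPM, and at most 4 in any barcode. Serpina3k, Mup3, Ahsg, Cyp3a11 and Cps1, all abundant in hepatocytes, were at 0 in both. Transthyretin (Ttr), which PT cells also express, had 1303 and 1280 UMIs. Apoa2 had 46 and 52 UMIs (5.66 and 7.13 CPM), Serpina1a 7 and 4, and Tat 3 and 0. The 10 hepatocyte genes summed to 172 CPM in control and 189 CPM in JPI-289 PT-like cells, of which Ttr made 160 and 176. Apart from Ttr, the listed genes were thus at 7.13 CPM or less in these cells. The neutrophil markers summed to 263 CPM in control and 83.5 CPM in JPI-289 PT-like cells, and the red blood cell markers to 112 and 145 CPM.

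Fibrinogen detection was set beside tubule injury genes in thinned PT-like barcodes. The PT-like clusters were pooled in these splits, and their part was not tested. Barcodes with Havcr1, which encodes kidney injury molecule 1, were fibrinogen-positive in 35.9% (26.7 to 46.0) of 103 control barcodes, and those without in 32.1% (29.5 to 34.7). In the JPI-289 library the shares were 61.4% (55.6 to 67.0) with Havcr1 and 61.2% (57.8 to 64.5) without. Lcn2, a secreted injury marker, gave 30.6% with and 32.6% without in the control and 61.9% and 61.2% with JPI-289. Detection of Havcr1 or Lcn2 in a barcode thus went with no difference beyond counting error in either library. Krt20, a keratin of injured PT, went with fewer positive barcodes in the JPI-289 library, 52.3% (47.4 to 57.1) against 66.6% (63.0 to 70.0). So did the cell cycle inhibitor Cdkn1a, with 46.5% (40.6 to 52.5) against 66.3% (63.0 to 69.5). In the control library the Krt20 shares were 36.2% and 32.2% and the Cdkn1a shares 23.3% and 33.0%, with overlapping intervals.

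Spp1 and Igfbp7 went the other way in both libraries. With Spp1, which encodes osteopontin, 34.3% of control and 65.6% of JPI-289 barcodes were positive, and without it 15.7% and 29.9%. With Igfbp7, a secreted binding protein, the shares were 40.1% and 71.96%, and without it 26.1% and 50.9%. Vcam1 was in 1 barcode of each library and gave no share of use. Clu gave 28.5% with and 32.8% without in the control and 61.4% and 61.3% with JPI-289. The split was planned for Havcr1, Lcn2, Krt20, Vcam1, Spp1 and Clu. Cdkn1a and Igfbp7 were added from the list of 14 tubule injury genes, whose other members went in both directions. In the JPI-289 library Krt8 gave 56.1% with and 64.4% without, Srxn1 58.4% and 65.2%, Sox9 68.0% and 60.4%, and Plin2 61.7% and 38.1%. The intervals of each pair overlapped.

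Segment markers were split in the same way. Barcodes with S1/S2 markers only were positive in 24.6% of control and 67.5% of JPI-289 barcodes, and those with S3 markers only in 24.3% and 56.9%. Barcodes with both were highest, at 41.6% (37.8 to 45.4) and 79.2% (70.3 to 86.5), and those with neither lowest, at 18.2% and 55.4%.

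Fibrinogen-positive barcodes differed from negative ones in other genes as well, given here without a test. In the control library Slc13a1 was in 46.5% of positive and 22.6% of negative barcodes, and Lgmn, a lysosomal protease, in 55.3% and 33.3%. The phosphate transporter Slc34a1 was in 69.1% and 48.8%, the efflux pump Abcg2 in 45.2% and 25.03%, and the lysosomal protease Ctsl in 47.5% and 27.8%. The ribosomal protein gene Rps4x was less frequent in positive barcodes (59.2% and 75.1%), as were Gstm1 (44.9% and 60.3%) and Odc1, of polyamine synthesis (31.6% and 46.2%).

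In the JPI-289 library Selenop, a plasma carrier of selenium, was in 66.5% of positive and 39.6% of negative barcodes. Ctsl (68.1% and 43.1%) and Lgmn (50.4% and 27.1%) were on the list again, with Igfbp7 (58.0% and 35.8%) and Mgst1 (54.2% and 34.2%). The Igfbp7 shares come from the same counts as its split above, read in the other direction. Hmga1, a chromatin protein (23.2% and 43.1%), the tubulin gene Tubb4b (29.6% and 48.7%) and Gsta1 (38.7% and 55.1%) were less frequent. The positive barcodes had more mitochondrial UMIs, a median of 4.98% against 2.97% in control and 4.80% against 2.40% in JPI-289 barcodes, and their part in these differences was not tested.

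Across 24 class and library sums, the 5 genes whose log2(CPM + 1) was most like that of summed fibrinogen were Havcr1 (Pearson's r = 0.82), Cyp2e1 (0.79), Acaa1b (0.77), Krt20 (0.74) and Pdk4 (0.73), out of 9999 genes. The sums share libraries and free RNA, so the r is a description. Havcr1 was thus first by class, although its detection went with no difference beyond counting error in the split of pooled PT-like barcodes. In the JPI-289 library Havcr1 was at 767 CPM in cluster 10, 399 CPM in cluster 9 and 203 CPM in cluster 0, an order unlike that of fibrinogen. A link within clusters was not tested.

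Next to the locus, Plrg1, a splicing factor gene 5.66 kb beyond Fgb, had 102 control and 159 JPI-289 UMIs in PT-like cells, a log2 ratio of 0.79 (0.43 to 1.17). On the other side Lrat, 104 kb beyond Fgg, had 13 and 0 UMIs. Against a floor of 3 counts per library it was at least 3.89-fold lower, but the exact interval of its log2 ratio allows -1.45. Of 16 listed genes of the region in the files, 8 were measured, which means at least 20 UMIs over both libraries. Of these, 1 was at least 2-fold higher and 4 at least 2-fold lower, with a median of -0.89. Over all measured genes 23.8% were at least 2-fold lower. The one higher was Tmem131l, with 12 and 22 UMIs (1.00, with an interval of -0.05 to 2.18). The lower ones with most UMIs were Trim2 (287 and 117 UMIs, -1.14), Gucy1a1 (58 and 2, -4.39, with an interval of -7.78 to -2.78) and Gucy1b1 (34 and 1, -4.37, with an interval of -10.28 to -2.36).

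IL-6 family ligands were scarce in PT-like cells. Il6 had 0 UMIs in both libraries, against 78 and 29 over all cells. The 2 measured ligands were past 2-fold, Clcf1 with 103 and 285 UMIs, a log2 ratio of 1.62 (1.29 to 1.96), and Cntf with 5 and 22 UMIs, a log2 ratio of 2.19 (0.86 to 4.05). Of 12 measured receptors and JAK-STAT3 genes, 1 was at least 2-fold higher and 0 lower, beside 9.16% and 23.8% of all measured genes. The median was 0.05, and -0.17 with a gene minimum of 100 UMIs. The higher one was Osmr, the oncostatin M receptor, with 8 and 71 UMIs, a log2 ratio of 3.23 (2.25 to 4.57). Stat3 had 650 and 1118 UMIs, 0.94 (0.80 to 1.08), and its target Socs3 had 366 and 270, -0.28.

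Among 8 transcription factors that act on the fibrinogen genes in liver, 1 was past 2-fold up and 1 down, with a median of 0.10. These shares were 9.16% and 23.8% over all measured genes. Cebpd, a C/EBP factor of the acute phase, was past 2-fold up, with 170 and 761 UMIs and a log2 ratio of 2.31 (2.08 to 2.57). Cebpb had 2148 and 1861 UMIs, -0.05.

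The other acute-phase proteins did not share the pattern as a group. Of 18 listed, 6 were measured, with 2 past 2-fold up, 1 down and a median of 0.49, also with Apcs at its bound. Over all measured genes 9.16% were past 2-fold up and 23.8% down. The median was -0.96 with a gene minimum of 100 UMIs and -0.06 with one of 5. Apcs, serum amyloid P, had 0 control and 23 JPI-289 UMIs. Against a floor of 3 counts it was at least 8.54-fold higher, but the exact interval of its log2 ratio allows 2.68. Serpina3n, a protease inhibitor, had 13 and 31 UMIs (1.38) and complement C3 had 224 and 64 (-1.64). Hp, Hpx and Saa2, strong acute-phase genes of liver, and Crp had at most 4 UMIs in the PT-like cells of either library. Saa1 had 14 and 17 UMIs (0.43) and Orm1 12 and 16 (0.56). Of the other liver secretory proteins 6 were measured, with 0 past 2-fold up and 2 down, Apob (1359 and 609 UMIs, -1.002) and Apoc3 (61 and 16, -1.74). Their median was 0.01, and -0.12 with a gene minimum of 100 UMIs.

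Coagulation factors and inhibitors had 9 of 20 genes measured, 1 past 2-fold up and 2 down (9.16% and 23.8% of all measured genes), and a median of -0.14. Procr, the protein C receptor, was higher, with 13 and 72 UMIs (2.58). Tfpi2 (211 and 29, -2.69) and the thrombin receptor thrombomodulin, Thbd (23 and 6, -1.70), were lower. Thrombin itself (F2) had 0 and 1 UMIs.

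The plasminogen system, which dissolves fibrin, had 9 of 11 genes measured, 3 past 2-fold up and 2 down, with a median of 0.43. The shares over all measured genes were 9.16% and 23.8%. S100a10 (4268 and 12073 UMIs, 1.66) and Anxa2 (528 and 2092, 2.14) form the annexin complex that binds plasminogen, and Plaur (134 and 372, 1.63) is the urokinase receptor. Urokinase itself, Plau, was lower, with 303 and 48 UMIs and a log2 ratio of -2.49 (-2.97 to -2.06), as was the plasmin inhibitor Serpinf2 (360 and 129, -1.32). The list of fibrinogen and fibrin receptors also held F2r and F2rl1, which are protease-activated receptors and do not bind fibrin. Of its 8 measured genes, 0 were past 2-fold up and 3 down (9.16% and 23.8% of all measured genes), with a median of -0.67. Those down were Icam1 (276 and 51, -2.27), Itga5 (34 and 10, -1.56) and F2r (19 and 5, -1.67).

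Of 4 measured genes with a fibrinogen-like domain, Angptl7 (22 and 110 UMIs, 2.45) and Angptl2 (9 and 76, 3.16) were past 2-fold up, where 9.16% of all measured genes were. The median was 1.13, but -0.18 with a gene minimum of 100 UMIs and 0.16 with one of 5. Among 13 measured chaperones and disulfide enzymes of the secretory path, 0 were past 2-fold in either direction and the median was -0.39, with Hspa5 at -0.22 and Calr at -0.94. Tubule injury genes had 7 of 13 past 2-fold up and 0 down, beside 9.16% and 23.8% of all measured genes, with a median of 1.31. Those with most UMIs were Plin2, of lipid droplets (4483 and 48063, 3.58), Srxn1, of the oxidative stress response (1091 and 8695, 3.15), and Krt20 (323 and 5339, 4.20).

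**Figure D5:**
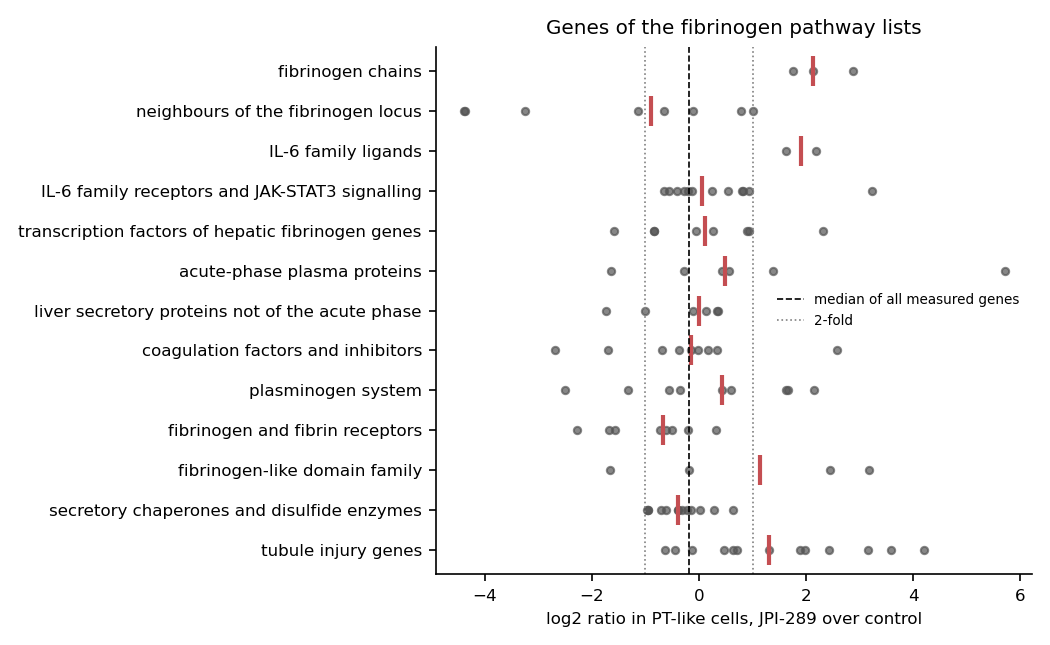
Log2 ratio of JPI-289 over control in PT-like cells for each measured gene of the lists (points), with the median of each list (red bars), the median of all measured genes (dashed line, -0.19) and 2-fold (dotted lines). The fibrinogen chains lie at 1.75 to 2.87, while the chaperones lie within 2-fold. The acute-phase point farthest to the right is Apcs, whose control count is 0.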

How the data were processed

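Single cells of kidney were sequenced with the 10x Genomics 5′ kit. The authors aligned and counted reads with Cell Ranger 5.0.1 on mm10, per the labels and the submitters' processing notes, and deposited the unfiltered UMI counts of each gene in every barcode, with no cell calling. All steps after that were made here. Barcodes were called as cells by a UMI threshold, 3338 for the control and 2618 for JPI-289, and then, from 500 UMIs, by an expression profile unlike that of empty droplets (false discovery rate 0.01). Cells over 50% mitochondrial UMIs were left out. No doublets were removed in the main values. Clustering used 2000 variable genes, 30 principal components, 20 neighbours and Leiden resolution 1, without the fibrinogen genes. A cluster could be named from marker lists if its score, the mean log2 excess of the markers over the median cluster, was at least 0.75. At any score it also needed 3 markers with at least 3 UMIs. No name was given to clusters led by platelet or urothelium markers, or with more markers of another class among the leading genes. Those led by injured PT markers could only be named PT-like. Clusters with a score below 2 had to meet further conditions: a marker among the 10 leading genes and fewer than 3 nuclear RNAs among them, the second set after the clusters were seen. Cluster 14, led in part by nuclear RNAs, had a score of 3.23 and kept its name. Ratios added 0.5 UMI to each sum. Genes named are the chains, list members past 2-fold (up to 3 per direction with most UMIs), neighbours of the locus, the genes of most similar pattern and those that differed most between fibrinogen-positive and -negative barcodes, and a few others were named after their values were seen. Some genes and 1 motif that the rules would name are not reported here. The members and gene lists were chosen with earlier results of these data known. The steps were tested on simulated data. The tools were scanpy 1.11.5 and leidenalg 0.10.2, with scipy 1.17.1 for intervals, in Python 3.11.15 with numpy 2.4.6.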

Additional observations from a re-analysis of the deposited data

Results flagged for a closer look

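Signal was found outside the called cells, in barcodes that enter the comparisons only as a measure of free RNA and in sums over all barcodes: barcodes of 100 to under 500 UMIs in the JPI-289 library were at 2784 CPM for summed fibrinogen, above the 476 of the same barcodes in the control library. Uncalled barcodes of at least 500 UMIs were at 2162 and 405, and barcodes under 100 UMIs at 2228 and 365.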

How the results depend on the processing

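The JPI-289 library stayed higher in all 18 alternatives for the summed log2 ratio, which ran from 1.11 to 2.38 around 2.13. The alternative over all barcodes takes in droplets without a cell and is no measure of PT-like cells. Fga ran from 0.87 to 2.08, Fgb from 1.55 to 3.19 and Fgg from 1.17 to 2.32. It was 1.11 with a minimum of 1000 UMIs, 1.995 with at most 20% mitochondrial UMIs, 2.31 with equal weight for each cell, 2.32 over all barcodes and 2.32 when centred on all genes. Of the alternatives chosen after seeing the data, free RNA from barcodes of 100 to under 500 UMIs gave 2.07, leaving out the cluster led by nuclear RNAs 2.38, counting the unnamed nuclear cluster as PT-like 2.05, leaving out cluster 9 1.36 and leaving out the 1% of barcodes with most fibrinogen 2.22. The difference in detection, 28.9 points, was 20.7 with a minimum of 1000 UMIs and 23.1 without cluster 9. The difference in positive barcodes with at least 2 chains, 25.5 points, was 11.1 and 17.0, and that in the Fgb share, 10.3 points, 5.28 and 7.51. The share with at least 2 chains rises with the level, so it is not a separate result. With a minimum of 1000 UMIs, 243 of the 315 cells left of cluster 9 fell in a single cluster, which stayed unnamed. No PT or injured PT marker was among its leading genes, whereas cluster 9 itself had Havcr1 and Plin2 of the injured PT list. With the clusters and names kept, the same minimum gave a log2 ratio of 2.10. A gene minimum of 100 UMIs left 22 list genes past 2-fold, in place of 36, since fewer genes were tested. No paired analysis was possible because each group has 1 library and no result comes from a test. At this depth, fibrinogen no higher than what free RNA adds to a cell cannot be told from none.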

Other observations

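An unnamed cluster led by the nuclear RNAs Neat1, Snhg11, Gm26917 and Malat1 held fibrinogen in the JPI-289 library. The highest marker score of this cluster was 1.84, for DCT and CNT, against 0.41 for PT. Slc12a3, a DCT marker, was among its leading genes. Its 304 JPI-289 cells were at 1321 CPM, and its 52 control cells at 106 CPM. Of the JPI-289 cells, 210 had at least 3 UMIs of PT markers and were at 1434 CPM (1350 to 1522), and the other 94 were at 811 CPM (680 to 959). The first had a median of 2380.5 UMIs and the others one of 1506, so they differ in depth too.

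Single barcodes carried much of the fibrinogen of some small classes. One JPI-289 lymphocyte-like barcode held 62 of the 121 UMIs of its class, with 16 Fga, 29 Fgb and 17 Fgg, and the level was 529 CPM with it and 267 CPM without. One control TAL-like barcode held 15 Fgg UMIs and 0 of the other chains. Podocyte-like cells of the JPI-289 library were at 613 CPM from 47 UMIs in 51 cells, with at most 9 in a barcode.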
